A study of Mus musculus with 24 samples.

Results

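Vomeronasal receptor gene ends are the stretches of DNA within 1000 bp of either end of the genes of the Vmn1r and Vmn2r families, taken here from the autosomal protein-coding genes of a mouse gene table on build mm10. The table held 231 Vmn1r and 123 Vmn2r genes, which makes 354 genes with 708 ends. An end was measured where its window held at least 5 CpGs and at least 10 pooled calls at each stage and genotype, and 333 ends of 212 genes passed, of 38681 measured ends of all 20665 autosomal protein-coding genes. These were 234 Vmn1r ends of 136 genes and 99 Vmn2r ends of 76 genes. Methylation was read by oxidative bisulfite sequencing of the whole genome, where prior oxidation stops 5-hydroxymethylcytosine from being read as 5-methylcytosine, and the level of a window is its methylated calls over all of its calls.

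The samples were mouse induced pluripotent stem (iPS) cells and embryoid bodies, the aggregates in which such cells differentiate. The knock-in (KI) cells were the clones N5 and N9, in which doxycycline switches on the microRNA miR-203, and the wild-type (WT) cells lacked that knock-in. All were sampled at t0 before doxycycline, at day 10, which was 5 days after a pulse of 5 days, at day 25, which was 20 days after it, and as embryoid bodies (EB) at day 32. The series design gives 7 days of embryoid body culture, and the label of the WT embryoid bodies gives 10. The labels place the WT cells of day 10 and day 25 after doxycycline as well, and they name it for the KI embryoid bodies but not for those of the WT. By the labels each of 12 libraries was run on 2 lanes, which were summed. The WT columns of the deposited table are headed as replicates 1 and 2 of each stage, and since the WT labels also give 2 lanes of 1 index a stage, they were taken as those lanes. n was then 2 clones in KI and 1 library in WT at each stage. Nothing in the labels says that a clone was cultured more than once at a stage, and p-values therefore measure the spread between these clones only.

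Vmn1r and Vmn2r genes code for the G protein-coupled receptors of the vomeronasal organ, the part of the nose that detects pheromones and other social odours in rodents. Vmn1r receptors are carried by neurons that use the G protein subunit Gnai2 and respond largely to small molecules such as steroids. Vmn2r receptors have a large extracellular domain, are carried by neurons that use Gnao1 and respond largely to peptides and proteins. Most such neurons express a single receptor gene or very few, and pluripotent cells are not a known site of their use. Neither RNA nor protein was measured here, so the levels below describe DNA methylation alone.

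The bases around the annotated starts of these genes held few CpGs. RefSeq promoters of GRCm38.p6 (the same assembly as mm10), 300 bases long and running from 250 bases before the start, were matched to 206 Vmn1r genes and 116 Vmn2r genes. They are called promoters by their place at the annotated start, which in most Vmn1r genes may be the start of the coding sequence, as the gene lengths given below show. They held a median of 1 CpG in both families, against 7 CpGs over all 31396 autosomal promoters of the table. No CpG was present in 21.4% of the Vmn1r and 29.1% of the 117 Vmn2r promoters, against 5.25% of all. Their median G+C content was 36.0% in Vmn1r and 38.0% in Vmn2r, against 53.0% over all promoters. Of the 482 CpGs in these promoters, 482 were positions of the deposited methylation table. The promoters of 6 genes described below follow, 5′ to 3′ on the strand of the gene, with each CpG in capitals. They show the range from 0 CpGs to the CpG-richest promoter of both families.
Vmn1r17 (chr6:57361329-57361628, minus strand, 0 CpGs): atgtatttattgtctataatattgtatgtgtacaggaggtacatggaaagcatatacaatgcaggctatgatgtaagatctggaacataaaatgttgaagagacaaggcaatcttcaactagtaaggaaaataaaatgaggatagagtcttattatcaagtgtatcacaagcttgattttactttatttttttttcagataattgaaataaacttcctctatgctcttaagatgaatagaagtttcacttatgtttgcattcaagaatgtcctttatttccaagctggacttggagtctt
Vmn1r212 (chr13:22884112-22884411, minus strand, 4 CpGs): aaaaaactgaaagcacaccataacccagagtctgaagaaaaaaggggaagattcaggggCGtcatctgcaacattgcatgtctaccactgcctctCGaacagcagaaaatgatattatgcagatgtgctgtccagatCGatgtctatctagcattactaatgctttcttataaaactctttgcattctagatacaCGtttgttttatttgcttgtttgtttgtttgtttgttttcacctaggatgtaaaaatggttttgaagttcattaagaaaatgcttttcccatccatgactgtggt
Vmn2r23 (chr6:123702571-123702870, plus strand, 1 CpG): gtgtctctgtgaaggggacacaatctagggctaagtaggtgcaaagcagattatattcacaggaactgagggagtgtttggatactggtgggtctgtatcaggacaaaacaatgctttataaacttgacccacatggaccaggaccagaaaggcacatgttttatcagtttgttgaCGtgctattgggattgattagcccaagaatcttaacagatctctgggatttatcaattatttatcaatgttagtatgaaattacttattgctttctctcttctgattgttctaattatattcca
Vmn2r90 (chr17:17703691-17703990, plus strand, 1 CpG): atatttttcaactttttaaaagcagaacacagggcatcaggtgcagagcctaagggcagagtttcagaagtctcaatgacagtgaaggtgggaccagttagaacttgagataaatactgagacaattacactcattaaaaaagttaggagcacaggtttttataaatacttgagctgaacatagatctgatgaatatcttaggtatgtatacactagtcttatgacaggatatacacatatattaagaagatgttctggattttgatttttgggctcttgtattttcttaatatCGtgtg
Vmn2r104 (chr17:20048156-20048455, minus strand, 2 CpGs): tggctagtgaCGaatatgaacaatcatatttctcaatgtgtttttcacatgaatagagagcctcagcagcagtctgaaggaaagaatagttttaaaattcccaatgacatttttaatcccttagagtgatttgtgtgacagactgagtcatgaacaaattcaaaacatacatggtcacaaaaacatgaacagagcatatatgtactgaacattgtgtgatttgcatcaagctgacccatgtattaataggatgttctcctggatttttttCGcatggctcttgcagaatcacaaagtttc
Vmn2r29 (chr7:7278240-7278539, minus strand, 23 CpGs): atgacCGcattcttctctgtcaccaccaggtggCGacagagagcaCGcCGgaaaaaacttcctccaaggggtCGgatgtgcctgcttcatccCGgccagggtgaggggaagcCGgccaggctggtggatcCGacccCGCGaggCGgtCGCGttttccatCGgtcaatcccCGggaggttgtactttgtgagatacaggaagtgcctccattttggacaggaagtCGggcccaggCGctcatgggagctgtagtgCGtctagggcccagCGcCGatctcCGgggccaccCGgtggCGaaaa
Of these promoters only the printed one of Vmn2r29 reached 10 CpGs, in 1 of 117 Vmn2r and 0 of 206 Vmn1r promoters, which 43.95% of all promoters did. Another promoter listed for Vmn2r29 (chr7:7247279-7247578) held 0 CpGs, at a G+C content of 38.3%. The 23 CpGs of the printed one had a methylation level of 15.9% in N5 and 15.1% in N9 at t0. By day 25 they were at 8.63% and 13.3%, and in embryoid bodies of these clones at 28.8% and 42.3%, on 83 to 255 calls. In the WT the same bases stood at 9.09% at t0, 15.8% at day 25 and 26.7% in embryoid bodies, on 57 to 131 calls. The promoters of Vmn2r23, Vmn2r90 and Vmn2r104 had 8 calls or fewer in each KI library and gave no usable level.

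What could be measured was set by CpG number and by calls. Of the 462 Vmn1r ends, 50 held under 5 CpGs and 178 had too few calls, and of the 246 Vmn2r ends, 71 and 76 failed in these ways. Measured ends held a median of 9 CpGs in Vmn1r and 8 in Vmn2r, against 29 over all measured ends. They were also shallower, with a median of 4.73 calls per CpG and library in Vmn1r and 3.96 in Vmn2r, against 5.57 at odorant receptor (Olfr) ends and 7.08 over all ends. In the library with the fewest calls, the median end had 25 calls in Vmn1r and 19 in Vmn2r, against 154 over all ends. The Vmn1r array on chromosome 7 from Vmn1r91 to Vmn1r183 was the least covered large group, with 24 of 172 ends measured for 86 genes. Receptor genes of one group are often near copies of each other, and reads that match several copies can be lost or misplaced in mapping, so single ends are reported as uncertain for that reason as well.

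The 2 families also differ in how their ends lie. The median Vmn1r gene was 924 bp long, and 201 of 231 had a length that is a multiple of 3, so most annotated starts may be starts of the coding sequence rather than of transcription. In 210 Vmn1r genes, shorter than 2000 bp, the windows of both ends overlapped. The median Vmn2r gene was 24544 bp long and no Vmn2r gene had overlapping windows. Other genes or pseudogenes lay within 9 Vmn1r and 5 Vmn2r windows. Among ends named below these included the start ends of Vmn1r4, Vmn1r52, Vmn2r2, Vmn2r7 and Vmn2r104 and the stop ends of Vmn1r51 and Vmn2r88. The low-coordinate end of Vmn1r53 and the high-coordinate end of Vmn1r88 were also among them. For 17 of 322 genes with a known strand the start in the promoter table lay more than 5 bp from the gene end used here.

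Both families were methylated at nearly all measured ends. At t0 the median Vmn1r end stood at 71.2% in KI, with quartiles of 64.8% and 76.3%, and at 66.7% in WT. The median Vmn2r end stood at 69.2% in KI, with quartiles of 60.3% and 76.9%, and at 67.6% in WT. Levels under 50% were found in KI at t0 at 11 of 234 Vmn1r ends and 5 of 99 Vmn2r ends. A level under 20% was found at 1 Vmn1r end and 0 Vmn2r ends. Odorant receptor ends, the other large receptor family of the nose, had a KI median of 73.5%, and the 12366 ends of other genes with 5 to 20 CpGs had one of 73.5% too.

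**Figure D1:**
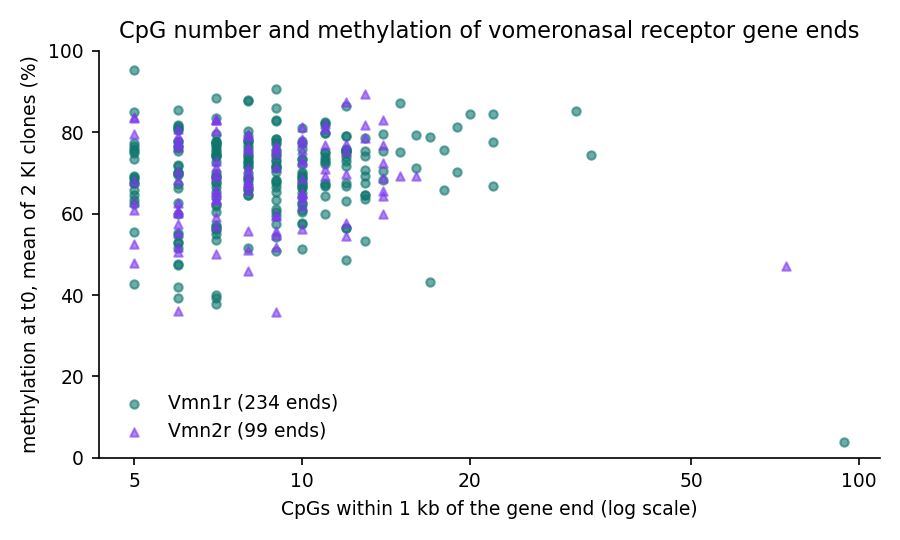
Each point is a measured gene end, placed by the number of CpGs in its window (horizontal axis, log scale) and by the mean methylation of the 2 KI clones at t0 in percent (vertical axis). Nearly all ends lie above 50%, and the 2 ends over 60 CpGs, of Vmn2r29 at 47.1% and of Vmn1r4 at 3.79%, lie apart to the right.

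The 2 ends over 60 CpGs were both under 50% in KI at t0. The start end of Vmn1r4 (chromosome 6, 56923914) held 94 CpGs and was methylated at 5.11%, 3.47%, 2.12% and 3.02% in N5 over the 4 stages. In N9 these values were 2.46%, 3.38%, 6.16% and 4.21%, and in WT 1.63%, 3.97%, 1.46% and 4.64%. All 12 libraries thus lay at 6.16% or below, and the groups overlapped. That window also overlaps Nt5c3, a nucleotidase gene, and lies 32599 bp from the start of Vmn1r4 in the promoter table. The start end of Vmn2r29 (chromosome 7, 7278289) held 74 CpGs, among them the 23 printed above, and stood at 47.1% ± 1.12, 44.5% ± 1.36, 35.4% ± 5.75 and 61.1% ± 3.48 in KI over the 4 stages (SD, n = 2), against 36.5%, 38.3%, 42.2% and 57.9% in WT. Because these windows carry many calls, they weigh on a pooled level: the Vmn1r ends of KI at t0 pooled to 68.4% with Vmn1r4 and to 70.7% without it. Family levels below are therefore pooled over ends of under 60 CpGs, a choice made after these values were seen.

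Among the ends with at least 20 calls in every library (147 Vmn1r, 46 Vmn2r), others stood lower or higher than their families. The stop end of Vmn1r212 (chromosome 13, 22883088, 17 CpGs) read 52.9% in N5 and 33.3% in N9 at t0, then 26.5% and 32.3% at day 25, then 61.4% and 56.8% in embryoid bodies. In WT it was at 28.2%, 44.3% and 62.3% at these stages. The 4 CpGs of its promoter, printed above, were higher, at 64.7% and 87.5% in the clones at t0 on 17 and 16 calls. The stop end of Vmn1r234 (chromosome 17, 21229816) had KI levels of 39.4% ± 7.18, 27.9% ± 2.58, 30.1% ± 7.20 and 57.1% ± 5.90 over the stages, against 45.1%, 48.8%, 52.0% and 60.5% in WT. At the high side, the 2 ends of Vmn1r88 (chromosome 7) were at 84.3% ± 1.22 and 85.2% ± 1.32 in KI at t0, against 86.2% and 88.0% in WT. The stop end of Vmn1r215 stood at 87.7% ± 1.30 in KI and 65.7% in WT at t0.

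In Vmn2r the 3 lowest of the ends with at least 20 calls by the KI mean over the 4 stages were the start ends of Vmn2r90, Vmn2r29 and Vmn2r17. Vmn2r90 at its start end (chromosome 17, 17703941, 8 CpGs) read 40% in N5 and 51.9% in N9 at t0, then 24.4% and 31.2% at day 25, then 83.3% and 63.9% in embryoid bodies, against 34.8%, 43.2% and 71.4% in WT. That of Vmn2r17 (chromosome 5) was at 70.0% in N5 and 39.3% in N9 at t0, and at 56.6% in WT, so that the clones lay on either side of the WT. The highest by the same mean were the stop end of Vmn2r79 (89.4% ± 0.786 in KI and 87.7% in WT at t0), the stop end of Vmn2r83 (82.9% ± 5.58 and 80%) and the start end of Vmn2r104 (69.3% ± 7.17 and 83.7%), which at t0 was near the family median in KI.

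The levels of N5 and N9 at t0 differed by a median of 7.82 points per Vmn1r end and 8.33 per Vmn2r end. Across ends the clones' changes to day 25 had a Pearson r of 0.177 in Vmn1r (234 ends) and -0.167 in Vmn2r (99 ends). It was 0.104 at the 12366 other ends of 5 to 20 CpGs. Ends of a library share its depth and overlapping windows share calls, so these r values are descriptions.

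Over the stages both families were lowest at day 25 in KI and highest in the embryoid bodies. Pooled Vmn1r ends stood at 70.7% ± 1.02 at t0, 67.2% ± 1.9 at day 10, 55.4% ± 0.264 at day 25 and 78.2% ± 2.46 in the KI embryoid bodies, against 66.6%, 67.9%, 68.0% and 76.3% in WT. Pooled Vmn2r ends stood at 69.8% ± 0.485, 68.0% ± 1.68, 57.3% ± 0.195 and 77.7% ± 1.22 in KI, against 66.2%, 67.4%, 67.2% and 76.5% in WT. At day 25 both clones lay under the WT library and under their own t0, and at the other stages the KI and WT levels lay within 5 points of each other. A lower level of such a bulk sample cannot be told apart from fewer cells that carry the methylation. The smallest two-sided p of an exact permutation test of 2 clones against 2 is 0.333, and family levels carry no test here. The whole autosomal genome moved in the same way, with day 25 levels of 48.4% (N5) and 47.7% (N9) and t0 levels of 64.8% and 64.9%, while WT had 61.1% at day 25 and 60.6% at t0.

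**Figure D2:**
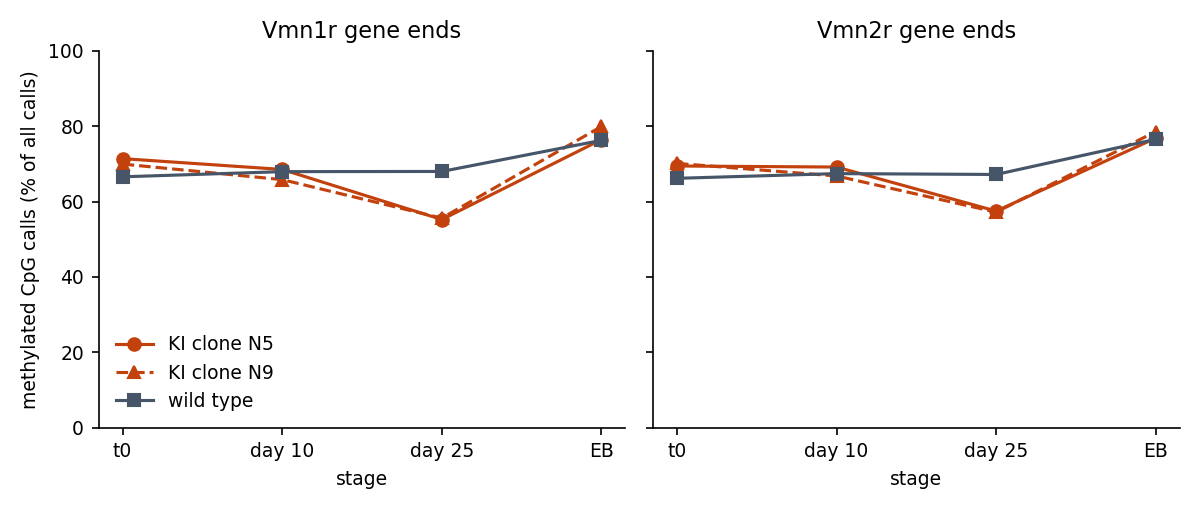
Pooled methylation (vertical axis, percent of calls) of Vmn1r ends (left) and Vmn2r ends (right) of under 60 CpGs at the 4 stages (horizontal axis), 1 line per KI clone or WT. Both clones are at 55.2% to 57.5% at day 25, where the WT is at 68.0% and 67.2%.

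The families differed little in level. The Vmn1r level minus the Vmn2r level of a library lay between -2.24 points (N5, day 25) and 1.96 points (N5, t0), and was positive in 5 and negative in 7 of the 12 libraries. At day 25 it was -2.24 in N5 and -1.59 in N9, against 0.795 in WT. With the 2 ends over 60 CpGs it was -2.14 in N5, -0.431 in N9 and -1.08 in WT at day 25, so that its sign in WT turned. The day 25 minus t0 difference in KI was -15.2 ± 1.29 points in Vmn1r and -12.4 ± 0.680 in Vmn2r. Without the 2 ends over 60 CpGs it was larger in Vmn1r in both clones (-16.2 and -12.0 in N5, -14.3 and -12.9 in N9). With them it was -17.5 and -11.8 in N5, but -13.1 in both families in N9. That difference between the families was not tested.

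No end was called between day 10 and t0 in KI. The median change was -3.87 points in Vmn1r and -1.95 in Vmn2r, against -2.86 over all ends and -4.78 at other ends of 5 to 20 CpGs. With edgeR, 0 of 333 ends passed an adjusted p of 0.05, 22 had an unadjusted p under 0.05, and limma gave 0 as well. Of all ends tested 0% passed, with 5700 at an unadjusted p under 0.05.

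From t0 to day 25 the KI clones lost methylation at many ends of both families. The median change was -14.8 points at Vmn1r ends (-14.9 in N5, -13.4 in N9) and -11.3 at Vmn2r ends (-11.6 in N5, -12.0 in N9), against -13.3 over all ends and -17.4 at other ends of 5 to 20 CpGs. In WT the medians were 2.29 points in Vmn1r and 0.972 in Vmn2r. A fall passed the test at 62 Vmn1r ends (26.5%) and 12 Vmn2r ends (12.1%), 74 in all, and 0 rose (edgeR, 0 also at an unadjusted p under 0.05), where 60.7% of all ends tested were called lower and 0.0103% higher. Calls depend on depth: with at least 30 calls in every library, 37 of 95 Vmn1r ends (38.9%) and 6 of 27 Vmn2r ends (22.2%) fell, against 71.6% of other ends of 5 to 20 CpGs. That limit does not equalize depth, since all such other ends had a median of 55 calls in the lowest library. With 10 to 29 calls in the lowest library 20.8% of Vmn1r and 8.33% of Vmn2r ends fell, against 30% of such other ends. Of other ends with 5 to 10 CpGs, 38.2% fell. The part of depth and of CpG number in the difference between the families was not tested. With limma 77 Vmn1r and 20 Vmn2r ends were called lower and 1 was called higher. That end, the start end of Vmn1r175, singled out after its values were seen, was at 76.9% and 63.6% in N5 and N9 at day 25, against 30% and 50% at t0, on 10 to 22 calls, and was not called with edgeR. The 74 dropped to 40 without N5 at t0, to 42 without N9 at t0 and to 45 without N5 at day 25. Within Vmn2r the 12 became 5 without N5 at t0, 7 without N5 at day 25 and 6 without N9 at day 25. Within Vmn1r the 62 became 35, 38 and 34 without N5 at t0, N5 at day 25 and N9 at t0.

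**Figure D3:**
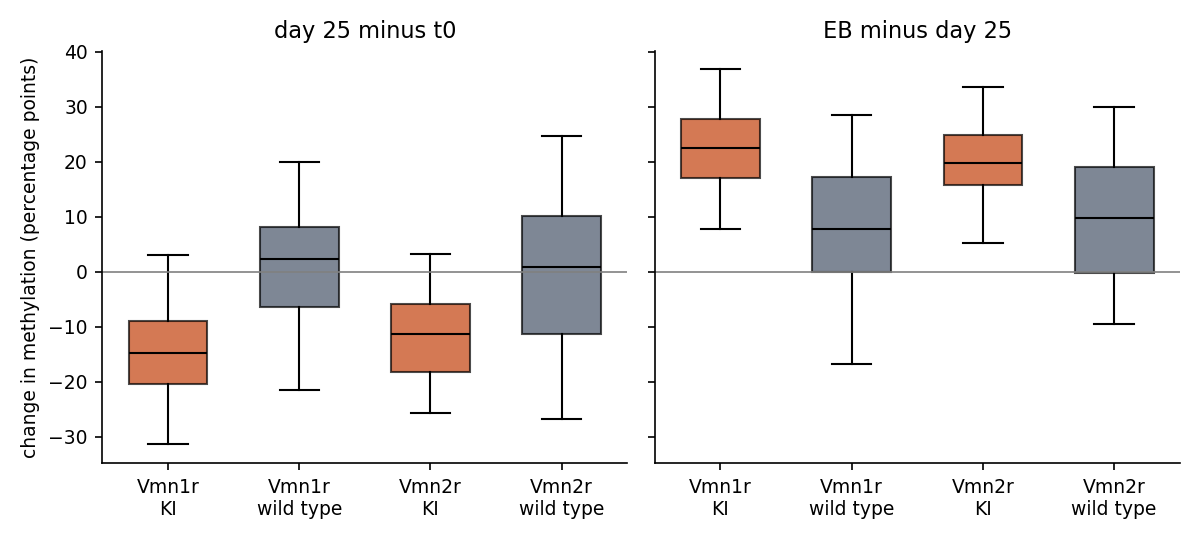
Change in methylation (vertical axis, percentage points) over the ends of each family, from t0 to day 25 (left) and from day 25 to EB (right), for the mean of the 2 KI clones and for the WT library. Boxes span the quartiles with the median as a line and whiskers reach the 5th and 95th percentiles of ends. The KI medians at left are -14.8 and -11.3 points, and the WT medians 2.29 and 0.972.

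The largest Vmn1r falls were at Vmn1r17 (chromosome 6), whose promoter is printed above without a CpG. Its start end (57361378, 6 CpGs) was at 33.3% and 27.3% in N5 and N9 at day 25, against 83.3% and 79.0% at t0, and WT was at 42.3% against 66.7%. The change in KI was -50.8 points (adjusted p = 0.00347, edgeR). The clones' day 25 values lay under all t0 values, and WT was lower at day 25 too. Its stop end, which shares CpGs with the start end, stood at 29% ± 0.594 at day 25, against 67.2% ± 7.43 at t0 (-38.2 points, adjusted p = 0.0120). That call was lost without N9 at t0 or without N9 at day 25, with the adjusted p reaching 0.0962.

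The stop end of Vmn1r233 (chromosome 17, 11 CpGs) was at 51.8% and 22.2% in N5 and N9 at day 25, against 70.8% and 79.5% at t0 (-38.1 points, adjusted p = 0.00634), with 70.7% and 60.8% in WT at these stages. Both clones fell, N9 further, and WT did not. Vmn1r55 (chromosome 7) at its start end was at 34.2% and 37.5% at day 25, against 65.6% and 80.6% at t0 (-37.2 points, adjusted p = 0.00461), with 64.5% and 62.5% in WT. Vmn1r-ps103 at its start end (chromosome 13, listed as protein-coding despite its name) was at 39.0% and 40.6%, against 73.1% and 77.8% (-35.6 points, adjusted p = 0.00422). The stop end of Vmn1r169 was at 37.9% and 46.7%, against 71.4% and 83.3% (-35.1 points, adjusted p = 0.0121). In each of these ends both clones were lower at day 25 than either was at t0. Without N9 at t0 the calls of Vmn1r233, Vmn1r55 and Vmn1r169 were lost, at adjusted p of 0.0524, 0.0673 and up to 0.122, and that of Vmn1r169 was also lost without N5 at day 25.

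In Vmn2r the largest fall was at the stop end of Vmn2r23 (chromosome 6, 123742239, 8 CpGs). It was at 40% and 22.2% in N5 and N9 at day 25, against 74.2% and 84.0% at t0, and at 58.3% and 50% in WT (-48.0 points in KI, adjusted p = 0.00192). Both clones fell below every t0 value, and this call held in each fit that left out 1 KI library, at an adjusted p of up to 0.0284. The stop end of Vmn2r4, a gene of the Vmn2r1 to Vmn2r7 group whose products are co-expressed with other Vmn2r receptors, was at 51.2% and 24.3%, against 64.5% and 72.4% (-30.7 points, adjusted p = 0.00742). The stop ends of Vmn2r71, Vmn2r61 and Vmn2r105 and the start end of Vmn2r80 fell by 35.8, 26.9, 25.6 and 25.4 points. Of these 5, Vmn2r71 rested on as few as 7 calls in a library and was not called with the clone as a replicate block (adjusted p = 0.0525). Vmn2r4 was lost without either N9 library of the comparison, Vmn2r105 without N5 at t0, Vmn2r80 without N9 at t0, Vmn2r61 without 3 of the 4 libraries (all but N9 at t0) and Vmn2r71 without any 1 of the 4, with adjusted p from 0.077 to 0.171 at their highest.

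From day 25 to embryoid bodies methylation came up at most ends of both families. The median change was 22.6 points in Vmn1r (21.8 in N5, 23.0 in N9) and 19.7 in Vmn2r (22.0 in N5, 21.6 in N9), against 20.9 over all ends and 25.1 at other ends of 5 to 20 CpGs, and 7.87 and 9.83 in WT. A rise passed the test at 154 Vmn1r ends (65.8%) and 55 Vmn2r ends (55.6%), 209 in all, and 0 fell (edgeR, 0 also at an unadjusted p under 0.05), where 84.3% of all ends tested were called higher and 0.00259% lower. With at least 30 calls in every library it was 87 of 95 (91.6%) and 24 of 27 (88.9%), against 95.8% of other ends of 5 to 20 CpGs. With 10 to 29 calls in the lowest library it was 50.8% and 50%, against 65% of such other ends. The 209 became 133 without the N9 embryoid bodies, and the 55 of Vmn2r became 36 without N5 at day 25, 36 without the N5 embryoid bodies and 30 without the N9 embryoid bodies.

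The end of Vmn2r23 that had fallen most also rose most, to 79.2% and 82.9% in N5 and N9 embryoid bodies, against 40% and 22.2% at day 25 (49.9 points, adjusted p = 0.000328). These 2 changes share the day 25 libraries, so a low day 25 value enters both. Vmn2r90 at its start end, printed above with 1 CpG in its promoter, rose by 45.8 points (adjusted p = 9.78e-05), and the stop ends of Vmn2r71, Vmn2r4 and Vmn2r124 and the start end of Vmn2r58 by 33.6 to 38.8 points. In Vmn1r, the start end of Vmn1r52 stood at 87.5% and 77.8% in embryoid bodies, against 47.6% and 30% at day 25 (43.8 points, adjusted p = 0.00607). The start end of Vmn1r-ps103 rose by 43.5 points, the high-coordinate end of Vmn1r8 by 42.1, the start end of Vmn1r224 by 41.7 and the stop ends of Vmn1r67 and Vmn1r55 by 41.1 and 39.0. These ends, like those named for day 25, were chosen for a large called change with both clones moving alike, so the likeness of the clones is part of the choice. The calls of Vmn1r52 (without the N5 embryoid bodies), Vmn1r224 (without the N5 embryoid bodies or N9 at day 25), Vmn2r71 (without N5 at day 25 or the N9 embryoid bodies) and Vmn2r124 (without N5 at day 25 or the N5 embryoid bodies) were lost, at adjusted p of up to 0.26, and those of the other ends were kept in each such fit.

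Embryoid bodies stood above t0 in both KI and WT. The median KI change was 7.41 points in Vmn1r and 7.98 in Vmn2r, against 5.08 over all ends and 7.52 at other ends of 5 to 20 CpGs, and 9.08 and 9.33 in WT. A rise in KI passed the test at 3 ends of each family, 6 in all, where 10.55% of all ends tested were called higher. These were the start ends of Vmn2r86 (89.5% ± 8.71 in embryoid bodies and 57.0% ± 7.77 at t0) and Vmn2r104 (91.3% ± 0.845 and 69.3% ± 7.17), the stop ends of Vmn2r78 (87.8% ± 0.867 and 68.8% ± 1.11) and Vmn1r177 (88.2% ± 4.24 and 57.4% ± 0.389), and ends of Vmn1r8 (82.9% ± 12.1 and 51.6% ± 6.50) and Vmn1r56 (84.8% ± 0.926 and 66.8% ± 3.65), with adjusted p of 0.0169 to 0.0475. The 6 calls became 1 without N5 at t0, N9 at t0 or the N5 embryoid bodies and 3 without the N9 embryoid bodies. With the clone as a replicate block Vmn1r177 and Vmn1r8 were not called (adjusted p = 0.0567 and 0.0559), and limma called 0 of 333 ends (57 had an unadjusted p under 0.05 with edgeR). Among ends with 10 to 29 calls in the lowest library, edgeR called 1.67% of each family higher, against 2.24% of such other ends.

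The KI clones and WT were compared at each stage. In embryoid bodies and at t0 and day 10, 0 of 333 ends were called (12, 18 and 13 at an unadjusted p under 0.05, 0 by limma), where 0.062%, 0.0155% and 0.0155% of all ends tested were called in either direction. The median KI minus WT difference was 3.62 and 3.27 points at t0 in Vmn1r and Vmn2r, -0.573 and 0.204 at day 10, and 2.13 and 0.547 for embryoid bodies. At day 25 it was -12.3 and -10.2, against -8.42 over all ends, -13.6 at other ends of 5 to 20 CpGs and -12.6 at odorant receptor ends. There 9 Vmn1r ends and 1 Vmn2r end were lower in KI and 1 Vmn2r end was higher, where 16% of all ends tested were called lower and 0.0517% higher. With 10 to 29 calls in the lowest library, 2.5% of Vmn1r and 1.67% of Vmn2r ends were lower, against 4.95% of such other ends.

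The lower ends included the stop end of Vmn1r7 (chromosome 6, 57024338), at 48.8% and 60.6% in N5 and N9 and 92.6% in WT at day 25 (-37.9 points, adjusted p = 0.0232). At t0 it was at 86.4% and 85.7% in the clones and 78.6% in WT. The stop ends of Vmn1r169 and Vmn1r83 were lower by 43.4 and 41.4 points, and that of Vmn2r129 stood at 72.4% and 61.5% in the clones and 96.9% in WT. The exception was the start end of Vmn2r7, at 73.7% and 87.5% in the clones and 23.1% in WT (57.5 points, adjusted p = 0.0410), which had 13 calls in its lowest library and read 53.6% in WT at t0. Its window also overlaps the pseudogene Vmn2r-ps11. The 11 calls fell to 2 without N5 at day 25, to 3 without N9 at day 25, to 6 with the clone as a replicate block and to 3 with limma. Vmn2r7 and Vmn1r169 were lost without either day 25 clone library, Vmn1r7 without N5 and Vmn1r83 and Vmn2r129 without N9, with adjusted p up to 0.166, and the block lost Vmn2r7, Vmn1r169 and Vmn1r83 (adjusted p = 0.0697, 0.051 and 0.0889). These tests assume that the lone WT library varies like a KI clone.

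The change itself was compared between KI and WT. From t0 to day 10, 0 ends differed (17 at an unadjusted p under 0.05, 0 by limma), where 0% of all ends tested did. From t0 to day 25 the change was lower in KI than in WT at 6 Vmn1r and 2 Vmn2r ends, where 10.51% of all ends tested were called so. Among ends with 10 to 29 calls in the lowest library these were 2.5% (Vmn1r) and 1.67% (Vmn2r). The share was 2.28% for such ends of other genes with 5 to 20 CpGs. The median difference in change was -15.6 points in Vmn1r and -12.7 in Vmn2r, against -11.6 over all ends and -17.5 at other ends of 5 to 20 CpGs. The start end of Vmn1r51 (chromosome 6, 90122643) was at 60.3% and 50% in N5 and N9 at day 25, against 80.7% and 83.1% at t0. The WT library rose there, to 83.0% from 55.1%, and the difference in change was -54.6 points (adjusted p = 0.0223, edgeR). From day 25 to embryoid bodies the change was higher in KI than in WT at 4 Vmn1r ends and 0 Vmn2r ends (8 at an unadjusted p under 0.05), where 8.34% of all ends tested were called so. With 10 to 29 calls in the lowest library it was 1.67% of Vmn1r and 0% of Vmn2r ends, against 2.09% of such other ends. The start end of Vmn1r42 was at 94.4% and 89.5% in embryoid bodies and 69.2% and 51.5% at day 25 in the clones, against 57.9% and 88.0% in WT (61.7 points, adjusted p = 0.0131). The 8 calls became 5, 4, 2 and 0 without N5 at t0, N5 at day 25, N9 at t0 and N9 at day 25. The call of Vmn1r51 was lost without N9 at day 25 (adjusted p = 0.0576), that of Vmn1r42 held in each fit that left out a KI library, and limma called 0 ends in both comparisons. The 4 became 1 without N5 at day 25 and 2 without N9 at day 25 or either embryoid body library.

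The genes lie in groups along the chromosomes, here split where 1 Mb or more holds no member. In the 14 groups with at least 5 ends used, the KI level at t0 ran from 64.8% (chromosome 7, Vmn2r57 to Vmn2r126) to 80.6% (chromosome 10, Vmn2r80 to Vmn2r83). The KI change to day 25 ran from -10.0 ± 5.26 points (chromosome 5, Vmn2r8 to Vmn2r17, 11 ends) to -17.7 ± 4.35 (chromosome 10, 6 ends), and the mean of the clones was below 0 in all 14. The WT change ran from -3.12 to 6.37 points over the same groups. The Vmn1r group with the most ends used, 60 ends of 33 of its 36 genes on chromosome 13 (Vmn1r188 to Vmn1r223), had a change of -16.1 ± 2.84 points, against 0.840 in WT. The mixed group of chromosome 17 (Vmn2r90 to Vmn1r237, 45 ends) was among the lowest in level, at 65.0% ± 0.143 in KI at t0, and had a change of -17.1 ± 0.901 points. The SDs between clones overlap for most neighbours in this order.

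**Figure D4:**
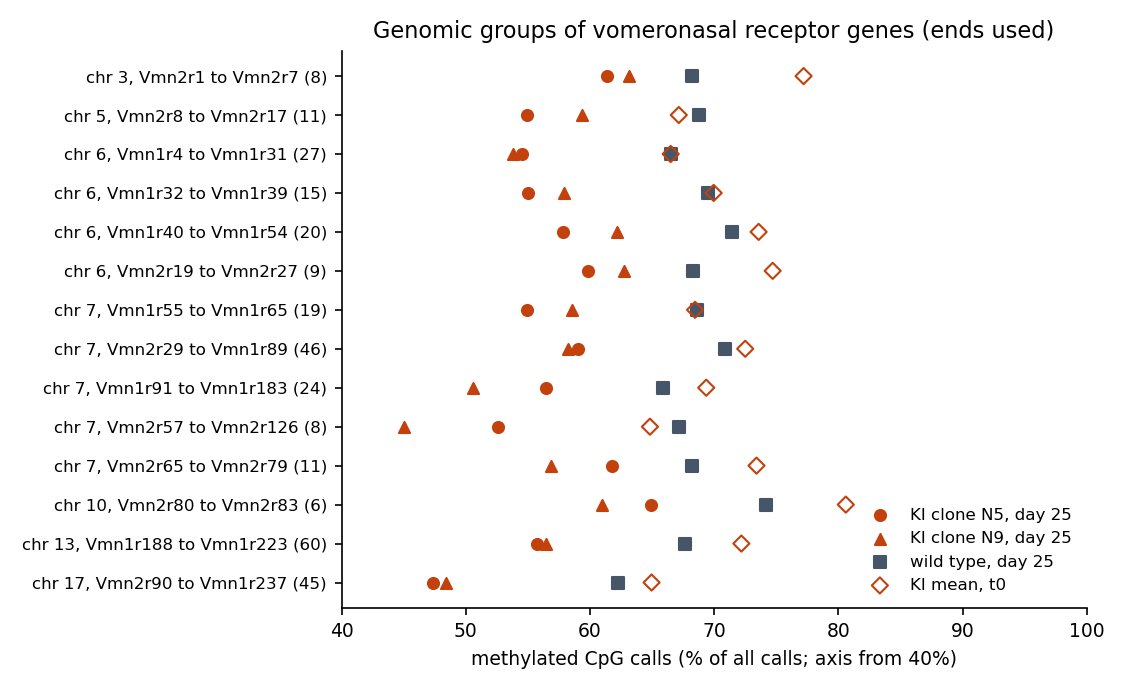
Pooled methylation (horizontal axis, percent of calls, from 40%) of each genomic group of vomeronasal receptor genes with at least 5 ends used, with the number of ends in brackets. Filled symbols are day 25 (N5, N9 and WT) and open diamonds the KI mean at t0. In all 14 groups both clones lie left of the WT symbol at day 25.

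Start and stop ends were compared within genes. Within the 86 Vmn1r genes with both ends measured and a known strand, the start end minus the stop end had a median between -2.31 and 0.242 points over the 12 libraries. In 23 Vmn2r genes the median lay between -8.49 and 0.490. Of the 98 Vmn1r genes with both ends measured, 92 had overlapping windows that share calls, so a small difference is partly built in. The windows of the 23 Vmn2r genes did not overlap, so the families are not compared on this value. Levels around the annotated starts were read in bins of 250 bp over 2000 bp on each side. The CpG-rich start ends of Vmn1r4 and Vmn2r29 were left out of these bins, a choice made after their values were seen. KI Vmn1r levels at t0 stayed between 66.1% and 73.3%, with 67.6% ± 1.90 in the first bin after the start. In Vmn2r they ran from 53.6% to 75.6%, over 38 to 84 CpGs a bin, with 61.3% ± 0.445 in the last bin before the start and 74.0% ± 4.11 in the first after it.

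**Figure D5:**
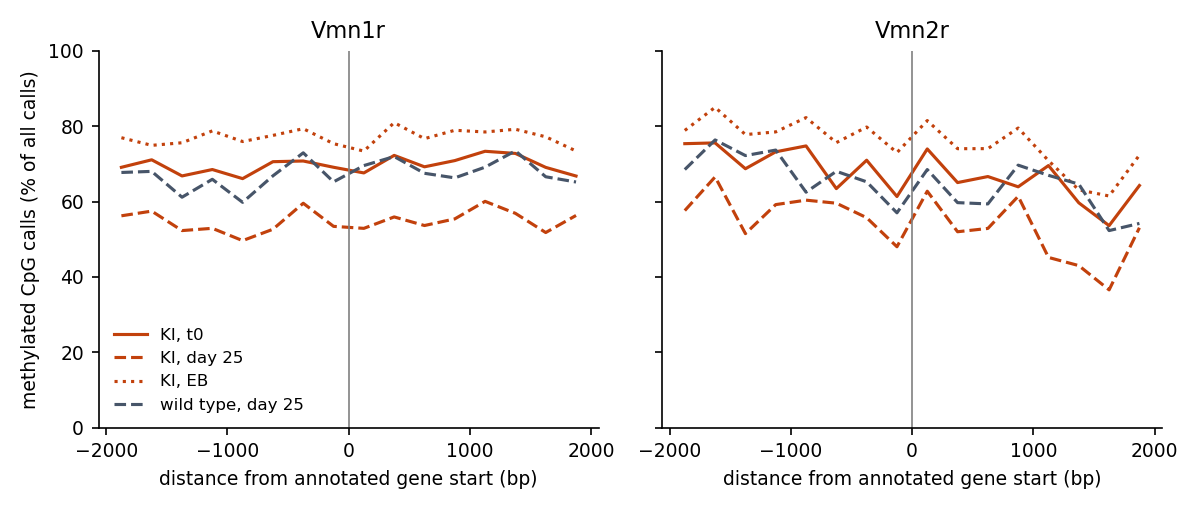
Pooled methylation (vertical axis, percent of calls) in bins of 250 bp by distance from the annotated gene start (horizontal axis, bp, positive into the gene) for 101 Vmn1r starts (left) and 49 Vmn2r starts (right). KI is shown at t0, day 25 and EB and WT at day 25. The CpG-rich start ends of Vmn1r4 and Vmn2r29 are left out. Among the starts shown, the Vmn1r lines are nearly flat, with 66.1% to 73.3% in KI at t0. No bin near these starts drops toward 0, which does not describe the left-out starts.

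Receptors with a known ligand or long use as markers differed among themselves, and most of their ends were not called at day 25. Vmn1r85 and Vmn1r89 respond to sulfated steroids in mouse. Vmn1r89 fell at both ends, to 55.6% ± 2.49 and 55.8% ± 2.86 at day 25, against 73.0% ± 3.13 and 75.1% ± 2.85 at t0 (adjusted p = 0.0114 and 0.0121), with 68.0% and 67.8% against 61.2% and 74.3% in WT. Vmn1r85 stood at 60.5% ± 0.931 and 54.5% ± 4.79 at day 25, against 57.7% ± 10.9 and 59.8% ± 8.47 at t0, and was not called. The start end of Vmn1r51 fell by 26.7 points to day 25 (adjusted p = 0.00617), while its stop end and both ends of Vmn1r49 were not called.

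Among Vmn2r genes, Vmn2r116, the receptor of the tear peptide ESP1, was at 46.4% and 40% in N5 and N9 at day 25 and 72.2% and 57.1% at t0 at its stop end (-21.5 points, adjusted p = 0.108). Vmn2r115, which responds to ESP22, stood at 51.4% ± 10.48 and 68.3% ± 12.6 at day 25 and t0 (adjusted p = 0.136) and rose in embryoid bodies by 30.4 points (adjusted p = 0.00446). Vmn2r26, which detects peptide ligands of MHC class I, was at 70.7% ± 6.90 at day 25 and 75.6% ± 9.01 at t0 (adjusted p = 0.482). Vmn2r88, which responds to haemoglobin, was at 62.6% ± 9.91 and 76.5% ± 9.74 (adjusted p = 0.212), in a window that also holds part of Gm7247. Vmn2r1, the co-expressed receptor of many Vmn2r neurons, had day 25 minus t0 differences of -1.14 points at its start end and -15.7 at its stop end (adjusted p = 0.771 and 0.0555).

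Other genes of the vomeronasal system were read with the same test. Of the 24 ends of 12 signalling genes, 17 were lower in KI at day 25 than at t0, where 60.7% of all ends tested were. Trpc2, the ion channel that carries the receptor current, was at 31.2% ± 1.81 at its start end at day 25 and 59.6% ± 7.31 at t0 (adjusted p = 0.00025), against 52.3% and 50.7% in WT. The CpG-rich ends of the G protein genes were low at these stages and some still fell, with the start end of Gnao1 (158 CpGs) at 2.44% ± 0.235 and 5.04% ± 1.52 (adjusted p = 0.0322) and the high-coordinate end of Gnai2 (77 CpGs) at 1.51% ± 0.477 and 3.91% ± 2.23 (adjusted p = 0.0168). Gng13 at its start end (67 CpGs), another G protein subunit gene, was at 17.1% ± 1.94 in embryoid bodies, against 4.89% ± 0.397 at day 25 (adjusted p = 3.4e-05). Of 16 ends of lineage transcription factors 8 fell, among them the stop end of Bcl11b, and its start end (112 CpGs) was at 0.272% ± 0.0962 and 0.316% ± 0.240. Of 15 ends of the H2-M class I genes, which code for molecules of Vmn2r neurons, 11 fell, of 23 ends of the ligand genes (Esp and Mup) 6, and of 9 ends of the formyl peptide receptor genes 0 (edgeR, 2 at an unadjusted p under 0.05). Medians over these lists were -13.2 points (signalling), -3.90 (transcription factors), -18.2 (H2-M), -14.4 (ligands) and -9.96 (formyl peptide receptors).

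Marker genes were read at their denser ends, and no cell type was called from them, so the labels of the cells were not tested. The 5 pluripotency genes Pou5f1, Nanog, Zfp42, Tdgf1 and Dppa4 had a median of 12.8% in KI at t0, 3.39% at day 25 and 11.6% for embryoid bodies, against 15.5%, 13.7% and 2.43% in WT. The 8 fibroblast genes, chosen because the cells were grown on feeders, had medians of 34.7%, 30.3% and 54.7% in KI, against 22.1%, 12.5% and 49.3% in WT. Methylation does not show whether feeder DNA was present, and its part in these levels was not tested. Calls per CpG over the autosomes ran from 4.88 (WT, day 25) to 9.12 (N5, day 25). N5 at t0, at day 25 and as embryoid bodies ran on another flow cell than the other 9 libraries, and N9, whose 4 libraries shared a flow cell with WT, had day 25 minus t0 differences of -14.3 points in Vmn1r and -12.9 in Vmn2r.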

How the data were processed

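Methylation was read in 12 libraries by oxidative bisulfite sequencing. Per the submitters' processing notes the tools included BWA and Picard 1.91, with build mm10. No source used here names the methylation caller. The authors deposited 1 table of 21875444 positions with, per the file headers, raw counts per CpG: methylated calls and total calls. The deposited WT counts came in 2 columns per stage, headed as replicates 1 and 2. They were taken as the 2 labelled lanes of 1 library and summed, which the headers do not state; at day 25 they held 1.80 and 3.08 calls per CpG, at 61.0% and 61.1% methylation. Were they separate cultures, the spread between WT samples would be left out here.

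Gene ends came from RefSeq on GRCm38.p6 and strands from its promoter table. Calls were summed within 1000 bp of each end. All 38681 measured ends were tested with edgeR 4.0.16 (quasi-likelihood F test on methylated and unmethylated calls, 8 stage-by-genotype groups with 4 residual degrees of freedom, common dispersion 0.02004) in 11 comparisons, with Benjamini-Hochberg adjustment over all ends and a threshold of 0.05. The fit was also run on simulated calls, with a spread that was set rather than taken from these data and changes added at KI day 25 only. Its outcome is not given, and no result here rests on it. Points are differences of percent methylation, and SDs are between clones. Libraries of 1 clone at different stages come from the same cell line and so are paired; the fit with the clone as a replicate block is given where it changed a call.

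Members, lists and tests were chosen with earlier results of these data known. Named ends are the 6 per family and direction with the largest called change with both clones moving alike, for day 25 against t0 and for embryoid bodies against day 25, the 3 such ends elsewhere, the 3 lowest and 3 highest by level, and 9 receptors with a known ligand, role or marker use. Alternatives were limma 3.58.1, the block, a flow cell term, other limits on calls, CpGs and window, the denser end of a gene, a coverage cap at 3 times the median, and each KI library left out.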

Additional observations from a re-analysis of the deposited data

Results flagged for a closer look

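The change from t0 to day 25 differed between the KI clones and WT at 8 ends by the interaction term of edgeR. The difference in change (KI minus WT) was -56.1 points at the stop end of Vmn1r83 (adjusted p = 0.0472), -54.6 at the start end of Vmn1r51 (0.0223), -53.8 at the stop end of Vmn2r61 (0.0382), -51.9 at the stop end of Vmn1r171 (0.0465), -43.0 at the low-coordinate end of Vmn1r53 (0.0427), -41.8 and -41.0 at the start and stop ends of Vmn1r183 (0.0445 and 0.0380) and -33.5 at the start end of Vmn2r2 (0.0459). The WT side of each rests on 1 library per stage. The window at Vmn2r2 also overlaps Vmn2r1, and its gene end lies 33437 bp from the start of Vmn2r2 in the promoter table. At Vmn2r61 the KI clones stood at 50% and 51.2% at day 25 and 80.8% and 74.2% at t0, and WT at 76.9% and 50%. At Vmn1r171 they stood at 53.1% and 41.7% at day 25 and 72.2% and 81.2% at t0, and WT at 80.7% and 58.1%. At Vmn2r61 and Vmn1r171, as at Vmn1r51, the WT library was thus higher at day 25 than at t0. With the clone as a replicate block Vmn1r171 was not called (adjusted p = 0.0520).

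From day 25 to embryoid bodies the difference in change was 61.7 points at the start end of Vmn1r42 (adjusted p = 0.0131, edgeR), 43.9 at the stop end of Vmn1r26 (0.0325), 32.5 at the start end of Vmn1r200 (0.0416) and 24.5 at the low-coordinate end of Vmn1r88 (0.0370). At Vmn1r26 the clones stood at 96.3% and 93.5% in embryoid bodies and 58.3% and 71.4% at day 25, and WT at 76.6% and 90.5%. At each of these 4 ends the WT library was lower in embryoid bodies than at day 25, and both clones were higher.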

How the results depend on the processing

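No called value of a named end changed sign under the settings tried, and the other called ends were not checked for this. Relative to all ends, the Vmn2r medians changed sign at day 10, at day 25 and from day 25 to embryoid bodies (last paragraph). Among the counts and medians, 279 values stayed within their limits and 98 moved; among named ends, 589 calls held and 126 were lost. The 589 and 126 leave out named ends that a setting no longer tested: with 500 bp only 7 held and 7 were lost, and with 10 CpGs 12 and 2. The 589 include fits without a day 10 library, though no comparison of a named end used day 10. Filters and windows change how many of the members are tested (333 at first, 158 with 30 pooled calls, 127 with 10 CpGs, 135 with 500 bp, 480 with 2000 bp, 204 with the denser end), which bears on the counts by construction. For day 25 against t0 in KI the 74 calls became 38 with 10 CpGs, 20 with 500 bp, 200 with 2000 bp and 44 with the denser end. The Vmn1r part became 31, 15, 139 and 34, and the Vmn2r part 7, 5 and 61 with the first 3 of these and 20 with limma. For embryoid bodies against day 25 the 209 became 128 with 30 pooled calls, 94 with 10 CpGs, 70 with 500 bp, 366 with 2000 bp and 126 with the denser end, the Vmn1r part 99, 69, 57, 242 and 88, and the Vmn2r part 29, 25, 13 and 124 with the first 4. For embryoid bodies against t0 the 6 became 0 with limma, 3 with 30 pooled calls, 3 with 10 CpGs, 0 with 500 bp, 39 with 2000 bp and 3 with the denser end. For KI against WT at day 25 the 11 became 3 with limma, 6 with the replicate block, 7 with 30 pooled calls, 4 with 10 CpGs, 1 with 500 bp, 70 with 2000 bp and 3 with the denser end. The 8 differences in change to day 25 became 0 with limma, 4 with 10 CpGs, 0 with 500 bp, 46 with 2000 bp and 1 with the denser end, and the 4 to embryoid bodies 0, 2, 1, 30 and 2. The cause of the limma and block differences was not tested.

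Leaving out 1 KI library gave 40 to 78 calls for day 25 against t0 (Vmn1r 34 to 65, Vmn2r 5 to 14), 133 to 210 for embryoid bodies against day 25 (103 to 154 and 30 to 56), 1 to 9 for embryoid bodies against t0, 2 to 14 for KI against WT at day 25, and 0 to 10 and 1 to 6 for the differences in change. The other 5 comparisons stayed at 0. The replicate block moved no other count by over 1.5 times.

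Relative to the median of all ends, the Vmn1r median was -1.0 points at day 10, -1.54 at day 25, 1.68 from day 25 to embryoid bodies and 2.32 from t0 to embryoid bodies, and the Vmn2r median 0.913, 1.94, -1.14 and 2.90, so that Vmn2r ends changed less than the median end at day 10, at day 25 and from day 25 to embryoid bodies. The Vmn1r median to day 25 was -13.4 in N9 alone. The Vmn2r median to day 25 was -12.2 with 10 CpGs, -14.1 with 500 bp, -13.0 with 2000 bp, -11.6 with the coverage cap and -12.0 in N9 alone. From day 25 to embryoid bodies it was 19.3 with the denser end, 20.5 with 500 bp, 21.3 with 2000 bp, 22.0 in N5 alone and 21.6 in N9 alone, and from t0 to embryoid bodies 5.82 with 500 bp. Without the ends of 60 CpGs or more, added after seeing the data, the pooled KI level at t0 was 70.7% in Vmn1r and 69.8% in Vmn2r. The planned fit without a call minimum could not be made, and at least 1 pooled call was asked for in its place. Depth limits single ends: the median Vmn2r end had 19 calls in its lowest library.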
